A study of Rattus norvegicus with 16 samples.

Results

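The insulin-like growth factors, their type 1 receptor and their binding proteins were followed in the infarct zone of rat hearts. The genes were chosen by name: Igf1, Igf2, Igf1r, Igfbp3, Igfbp4, Igfbp5, Igfbp6 and Igfbp7, which makes 8 genes. Of these, 7 were among the 17085 genes of the deposited table, and all 7 passed the filter on low counts that left 11376 genes for testing. Igfbp3 was not analysed here. Bulk RNA sequencing covered 16 libraries, 4 in each of 4 groups. MI_stiff and MI_soft rats had the left anterior descending coronary artery tied off and received a stiff or a soft hydrogel, a water-rich polymer network that the series title describes as injected into the heart muscle. MI rats had the same ligation without a gel, and Sham rats were the surgical controls. The sources used here do not give strain, age, the time after surgery, the gel material or its stiffness. The extraction label also mentions MI/R, which commonly stands for infarction followed by reperfusion; whether flow was restored is not known. The labels give 4 replicates per group but do not say that these were separate animals, and p-values therefore reflect library-to-library spread that may be technical.

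Igf1 and Igf2 are secreted ligands that activate Igf1r, a cell surface tyrosine kinase, which signals through insulin receptor substrates, PI3 kinase and AKT to promote growth and survival of cells, heart muscle cells among them. Most circulating Igf1 comes from the liver under growth hormone, while fibroblasts and macrophages make it locally in injured tissue. The binding proteins hold the ligands outside the cell and set how much reaches the receptor. Proteases that cut binding proteins release the ligand again. Igfbp7 binds the ligands only weakly, unlike the other binding proteins measured here.

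The libraries held 10940685 to 14456188 counts. Genes with at least 1 count numbered 12019 to 12820 in 12 libraries, but 10470 in MI 2, 10958 in MI 3, 11283 in MI 4 and 11785 in MI_soft 4. Those 4 libraries are referred to as the libraries with few genes detected, and some results are also given without them.

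Of the 7 measured genes, 4 rose in every ligated group relative to Sham: the ligand Igf1 and the binding proteins Igfbp4, Igfbp6 and Igfbp7. Igfbp6 had the largest difference of the 7 in each group, at 11.0-fold in MI_stiff, 14.6-fold in MI_soft and 24.1-fold in MI. Igf2, Igfbp5 and the receptor Igf1r passed the test in none of these 3 comparisons. By edgeR's quasi-likelihood test at an adjusted p under 0.05, 4 of 7 genes were called higher in MI_stiff, where 12.7% of all tested genes were. The count was likewise 4 of 7 in MI_soft against a background of 16.4%, and 4 of 7 in MI against 20.2%. Every library lay above every Sham library for 5 of the 7 genes in MI_stiff (19.3% of all tested genes), for 4 in MI_soft (20.9%) and for 4 in MI (17.7%). The median log2 difference over the 7 genes was 1.46 in MI_stiff, 2.20 in MI_soft and 2.01 in MI, where the medians over all tested genes were 0.02, 0.01 and 0.06. The genes were chosen with earlier results of these data known, so these contrasts with all tested genes are descriptive only. The 3 comparisons use the same Sham libraries and are not independent of each other. In bulk tissue a change in the number of cells of a type and a change in RNA per cell cannot be told apart. The 4 called genes kept their call in each of 25 alternative fits per comparison.

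**Figure D1:**
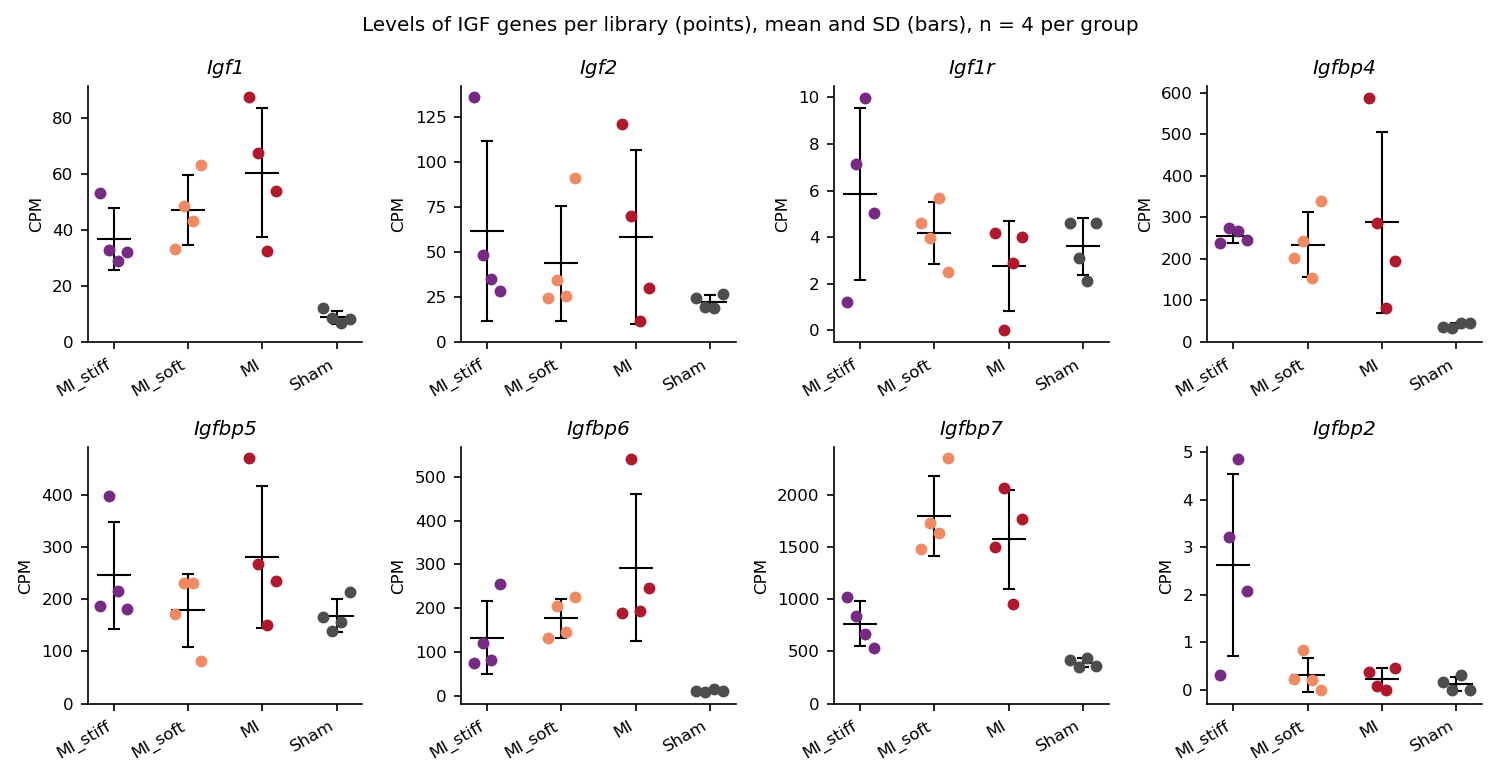
Level of each gene in CPM (vertical axes, linear, each panel with its own scale) in the 16 libraries of MI_stiff, MI_soft, MI and Sham, as points, with the group mean as a horizontal bar and the SD as an error bar (n = 4). Igf1, Igfbp4, Igfbp6 and Igfbp7 lie above all Sham libraries in all 12 ligated libraries, and Igfbp7 is lower in the 4 MI_stiff libraries (535 to 1024 CPM) than in the 4 MI_soft libraries (1482 to 2352 CPM).

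Of the 2 ligands, Igf1 passed the test in each comparison with Sham. Its level, in counts scaled to a common library size (CPM), was 53.2, 32.9, 29.1 and 32.0 in MI_stiff libraries 1 to 4. It was 33.3, 48.6, 43.1 and 63.2 CPM in MI_soft, 87.4, 67.5, 32.6 and 54.1 CPM in MI, and 12, 8.51, 6.68 and 8.16 CPM in Sham. The lowest ligated library, MI_stiff 3, thus lay above the highest Sham library. Igf1 averaged 36.8 ± 11.0 CPM in MI_stiff, 47.0 ± 12.5 in MI_soft, 60.4 ± 23.1 in MI and 8.85 ± 2.28 in Sham (SD, n = 4 each). The log2 difference from Sham was 2.05 ± 0.31 in MI_stiff (SE; adjusted p = 0.000153), 2.41 ± 0.31 in MI_soft (adjusted p = 2.83e-05) and 2.77 ± 0.31 in MI (adjusted p = 5.58e-06). On the linear scale that is 4.15-fold (95% interval 2.65 to 6.50), 5.31-fold (3.38 to 8.35) and 6.82-fold (4.31 to 10.8).

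Igf2, the ligand best known from fetal growth, varied widely between libraries of a group. Its level was 136, 48.3, 34.9 and 28.5 CPM in MI_stiff, 24.2, 34.5, 25.4 and 91.3 CPM in MI_soft, 121, 70.0, 11.9 and 30.3 CPM in MI, and 24.4, 19.6, 19 and 26.9 CPM in Sham. All 4 MI_stiff libraries lay above the Sham range, while MI_soft and MI overlapped it, and MI 3 lay below it. Against Sham, the log2 difference was 1.46 ± 0.61 in MI_stiff (adjusted p = 0.0957), 0.96 ± 0.60 in MI_soft (adjusted p = 0.246) and 1.37 ± 0.60 in MI (adjusted p = 0.0831). The intervals of these differences run from 0.19 to 2.74, from -0.30 to 2.23 and from 0.10 to 2.65, so a change of several fold is within the error. The MI difference was 0.72 without MI 1 (adjusted p = 0.353). It passed the test at 2.44 without the libraries with few genes detected, where MI 1 with its 121 CPM is the only MI library (adjusted p = 0.0116), at 1.70 without MI 3 (adjusted p = 0.0260) and at 1.40 without MI_soft 4 (adjusted p = 0.0490). The MI_stiff difference was 0.73 without MI_stiff 1 (adjusted p = 0.441). It passed under DESeq2 (1.42, adjusted p = 0.0486), without the libraries with few genes detected (1.49, adjusted p = 0.0196) and in a fit of MI_stiff and Sham alone (1.47, adjusted p = 0.0179).

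The receptor was scarce. Igf1r had 1.22, 7.16, 9.99 and 5.04 CPM in MI_stiff, 4.63, 3.95, 5.68 and 2.51 CPM in MI_soft, 4.18, 0, 2.91 and 4.01 CPM in MI, and 4.59, 3.12, 2.10 and 4.60 CPM in Sham. All ligated groups overlapped Sham, and MI 2 had no count at all. The fitted log2 difference from Sham was 0.70 ± 0.75 in MI_stiff, 0.22 ± 0.75 in MI_soft and -0.37 ± 0.75 in MI, with adjusted p of 0.555, 0.853 and 0.726. The intervals, -0.87 to 2.27, -1.35 to 1.79 and -1.96 to 1.21, are wide enough to hold changes of more than 2-fold. By TPM, which corrects for transcript length, Igf1r ranked between 9075 and 11228 among the genes of a library, while Igf1 ranked between 823 and 3026 in ligated libraries and between 4528 and 6010 in Sham.

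Igfbp4, a binding protein that mostly holds Igf1 and Igf2 away from the receptor until the protease Pappa cuts it, was higher in all ligated groups. It had 238, 274, 267 and 245 CPM in MI_stiff, 201, 242, 154 and 339 CPM in MI_soft, 588, 287, 80.9 and 195 CPM in MI, and 36.8, 33.5, 44.6 and 46.0 CPM in Sham. No ligated library reached down to the Sham range. The libraries of MI_stiff were close together, with a mean of 256 ± 16.9 CPM, whereas MI averaged 287 ± 217 CPM, with MI 1 the highest and MI 3 the lowest of all ligated libraries. The log2 difference from Sham was 2.67 ± 0.42 in MI_stiff (adjusted p = 0.000229), 2.54 ± 0.42 in MI_soft (adjusted p = 0.00027) and 2.84 ± 0.42 in MI (adjusted p = 7.68e-05).

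Igfbp5, which binds extracellular matrix as well as the ligands, did not pass the test. Its level was 187, 398, 215 and 182 CPM in MI_stiff, 172, 231, 230 and 81.3 CPM in MI_soft, 471, 267, 151 and 235 CPM in MI, and 165, 138, 157 and 213 CPM in Sham. Each ligated group overlapped Sham, and MI_soft 4 lay below every other library. Against Sham, the log2 difference was 0.54 ± 0.36 in MI_stiff (95% interval -0.21 to 1.29, adjusted p = 0.306), 0.09 ± 0.36 in MI_soft (-0.66 to 0.83, adjusted p = 0.881) and 0.74 ± 0.36 in MI (-0.01 to 1.49, adjusted p = 0.114). In MI it passed at 0.93 without MI 3 (adjusted p = 0.0489) and at 1.5 without the libraries with few genes detected, which leaves MI 1 as the only MI library (adjusted p = 0.00337).

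Igfbp6, which prefers Igf2 to Igf1, had 92.8 to 592 TPM in ligated libraries and 9.45 to 20.0 TPM in Sham. It had 75.3, 121, 82.2 and 255 CPM in MI_stiff, 133, 205, 147 and 225 CPM in MI_soft, 189, 540, 194 and 246 CPM in MI, and 11.0, 9.65, 15.7 and 12.2 CPM in Sham. The lowest ligated library, MI_stiff 1, was several times the highest Sham library. The fitted log2 difference from Sham was 3.46 ± 0.42 in MI_stiff (adjusted p = 2.34e-05), 3.87 ± 0.43 in MI_soft (adjusted p = 6.8e-06) and 4.59 ± 0.44 in MI (adjusted p = 1.26e-06). The folds above have intervals of 5.96 to 20.3 in MI_stiff, 7.83 to 27.3 in MI_soft and 12.6 to 45.8 in MI.

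Igfbp7, a secreted protein of blood vessels and fibroblasts, was the most abundant member in each library by TPM. It had 1024, 836, 669 and 535 CPM in MI_stiff, 1482, 1732, 1629 and 2352 CPM in MI_soft, 1501, 2065, 953 and 1771 CPM in MI, and 417, 346, 438 and 360 CPM in Sham. MI_soft and MI lay far above Sham, and MI_stiff lay between them and Sham except that MI_stiff 1 exceeded MI 3. The log2 difference from Sham was 0.97 ± 0.25 in MI_stiff (adjusted p = 0.0105), 2.20 ± 0.26 in MI_soft (adjusted p = 1.25e-05) and 2.01 ± 0.26 in MI (adjusted p = 1.92e-05). These are folds of 1.96 (95% interval 1.36 to 2.83), 4.61 (3.15 to 6.74) and 4.03 (2.76 to 5.87). By TPM, Igfbp7 ranked between 77 and 150 among all genes of an MI_stiff library, between 41 and 53 in MI_soft, between 44 and 110 in MI and between 189 and 234 in Sham.

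The windows just before the gene starts are shown for the 4 genes that rose together, to set their GC content and short motifs side by side. How alike the sequences are was not measured. They are the 250 bases before the RefSeq start in build GRCr8, another build than the rn7 of the counts, and all are on the plus strand: chr7:24172282-24172531 for Igf1, chr10:84491221-84491470 for Igfbp4, chr7:135154669-135154918 for Igfbp6 and chr14:31091486-31091735 for Igfbp7. Capitals mark matches on either strand to any of 5 motifs that were searched: the TATA box (TATAAA), the CCAAT box, the GC box (GGGCGG), the AP-1 motif (TGANTCA) and the TEAD motif (GGAATG). No match overlapped another here.
Igf1: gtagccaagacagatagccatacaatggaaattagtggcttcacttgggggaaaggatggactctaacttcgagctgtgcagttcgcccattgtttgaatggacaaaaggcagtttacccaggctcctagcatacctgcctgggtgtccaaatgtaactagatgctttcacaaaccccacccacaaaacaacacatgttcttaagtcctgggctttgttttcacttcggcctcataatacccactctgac
Igfbp4: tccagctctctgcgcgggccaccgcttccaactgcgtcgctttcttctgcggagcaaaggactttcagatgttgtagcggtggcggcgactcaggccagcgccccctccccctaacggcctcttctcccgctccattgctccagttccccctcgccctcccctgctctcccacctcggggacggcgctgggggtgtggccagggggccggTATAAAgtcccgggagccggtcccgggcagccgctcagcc
Igfbp6: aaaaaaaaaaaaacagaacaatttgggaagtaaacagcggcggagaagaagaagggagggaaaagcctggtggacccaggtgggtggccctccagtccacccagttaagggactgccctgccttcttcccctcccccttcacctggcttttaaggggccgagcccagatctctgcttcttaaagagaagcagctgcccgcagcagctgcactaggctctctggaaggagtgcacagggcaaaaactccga
Igfbp7: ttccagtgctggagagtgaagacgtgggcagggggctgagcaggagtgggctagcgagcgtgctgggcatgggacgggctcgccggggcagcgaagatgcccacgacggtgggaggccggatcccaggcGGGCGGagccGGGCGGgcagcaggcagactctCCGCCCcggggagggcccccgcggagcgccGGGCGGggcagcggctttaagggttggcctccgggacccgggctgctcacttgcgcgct
The GC content of these windows was 46.8% in Igf1, 68.8% in Igfbp4, 54.8% in Igfbp6 and 74.4% in Igfbp7, beside a median of 51.2% over 33469 RefSeq promoter windows of the same length. The Igfbp4 window held TATAAA between 40 and 35 bases before the start, a motif found in 12.9% of all windows. The Igfbp7 window held GGGCGG 4 times, 1 of them on the minus strand, and 30.5% of all windows held it at least once. The Igf1 and Igfbp6 windows held none of the 5 motifs; the CCAAT box was in 34.0% of all windows, the AP-1 motif in 6.34% and the TEAD motif in 12.1%. No motif was shared among these 4 windows. A match describes letters only, and its absence says nothing of the factors that may bind.

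Next, the gel groups were compared with each other and with MI, which addresses whether gel treatment and its stiffness go with a different level of these genes. Igfbp7 had the smallest p of the 7 genes in both comparisons of MI_stiff: it was 0.426 times its MI_soft level and 0.487 times its MI level, with adjusted p just above the threshold. No gene of the 7 was called by edgeR in any of the 3 comparisons. For MI_stiff against MI_soft, the count was 0 where 0.0967% of all tested genes were called; 1 gene of the 7 had an unadjusted p under 0.05, and DESeq2 and limma-voom each called 1. For MI_stiff against MI, the count was 0 where 1.19% of genes were called; 3 of the 7 had an unadjusted p under 0.05, DESeq2 called 1 and limma-voom 0. For MI_soft against MI, the count was 0 where 0.0264% were called, and none of the 7 had an unadjusted p under 0.05 or was called by DESeq2 or limma-voom. Over all genes, DESeq2 called 278, 583 and 293 in these 3 comparisons, in the order given, and limma-voom 17, 86 and 7. The share of all genes with an unadjusted p under 0.05 was not computed, so the counts at that cut have no background.

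The Igfbp7 difference of MI_stiff from MI_soft was -1.23 ± 0.25 on the log2 scale, with an unadjusted 95% interval of -1.76 to -0.70 and an adjusted p of 0.0513. Every MI_stiff library was below every MI_soft library, which held for 6.87% of all tested genes. The adjusted p lay between 0.000741 and 0.214 over 25 alternative fits and was under the threshold in 5 of them. It passed with DESeq2 (0.000741), with limma-voom (0.0491), without the libraries with few genes detected (0.0119), without MI 1 (0.0458) and without MI 3 (0.0294). From MI, the MI_stiff level differed by -1.04 ± 0.25 (interval -1.57 to -0.51, adjusted p = 0.0515), and the libraries overlapped because MI 3 had 953 CPM. That adjusted p lay between 0.00452 and 0.190 and passed in 4 of 25 fits: with DESeq2 (0.00452), without MI 1 (0.0223), without MI 3 (0.0197) and without MI_soft 4 (0.0233). The direction was lower in MI_stiff in all 25 fits of both comparisons. MI_soft differed from MI by 0.19 ± 0.25 (interval -0.33 to 0.72, adjusted p = 0.732).

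For the other genes the gel comparisons gave wide intervals. Igf1 differed by -0.35 ± 0.29 in MI_stiff against MI_soft, by -0.72 ± 0.29 in MI_stiff against MI and by -0.36 ± 0.29 in MI_soft against MI, with adjusted p of 0.586, 0.223 and 0.568. Igfbp6 differed by -0.41 ± 0.38, -1.13 ± 0.38 and -0.72 ± 0.38 in the same 3 comparisons, with adjusted p of 0.629, 0.149 and 0.375. The Igfbp6 difference of MI_stiff from MI has an interval of -1.94 to -0.33 and passed the test without MI 1 (-1.30, adjusted p = 0.0445). For Igfbp4 the differences were 0.13 ± 0.39, -0.17 ± 0.39 and -0.30 ± 0.39, and each interval spans at least -0.69 to 0.53. With the 4 libraries with few genes detected left out, Igfbp4 was lower in MI_stiff than in MI (-1.20, adjusted p = 0.0148) and in MI_soft than in MI (-1.57, adjusted p = 0.00944), but MI is then the single library MI 1, which had the highest Igfbp4 of all, and without MI 1 the differences were 0.45 and 0.30. Igf2, Igf1r and Igfbp5 had adjusted p from 0.390 to 0.954 in the 3 comparisons. The order of the group means for Igf1 was MI, MI_soft, MI_stiff and Sham from the highest, and the test did not separate neighbours among the ligated groups.

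**Figure D2:**
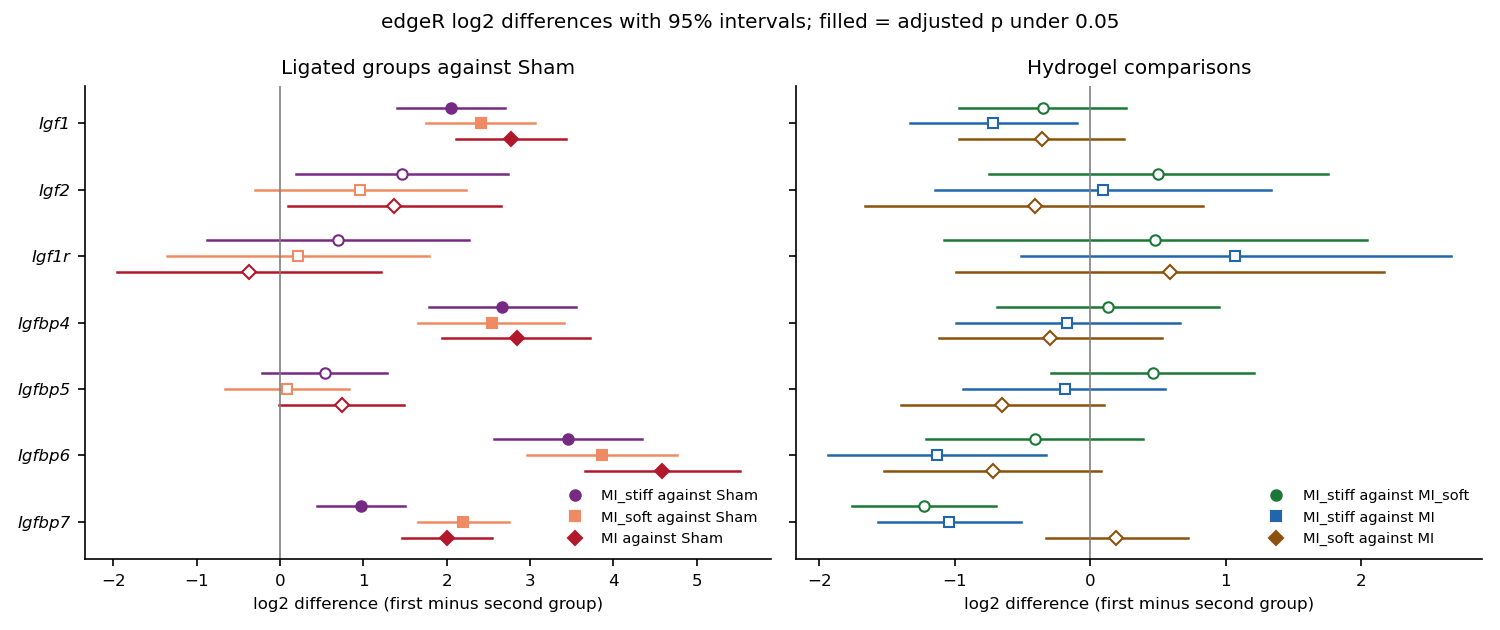
Log2 differences with their unadjusted 95% intervals (horizontal axes) for the 7 genes, from edgeR on 16 libraries, with the ligated groups against Sham on the left and the gel comparisons on the right; filled symbols mark an adjusted p under 0.05. Igf1, Igfbp4, Igfbp6 and Igfbp7 are filled in all 3 comparisons with Sham, no symbol is filled on the right, and the Igfbp7 intervals of MI_stiff (-1.76 to -0.70 and -1.57 to -0.51) lie below 0, as do those of Igf1 (-1.33 to -0.10) and Igfbp6 (-1.94 to -0.33) for MI_stiff against MI.

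Because TPM is scaled for length, levels of different genes can be added. The summed TPM of Igfbp4, Igfbp5, Igfbp6 and Igfbp7 was 1203 ± 136 in MI_stiff, 2086 ± 94.1 in MI_soft, 2017 ± 732 in MI and 412 ± 86.1 in Sham (SD, n = 4 each). Its range was 1103 to 1403 in MI_stiff, 2007 to 2212 in MI_soft, 1153 to 2780 in MI and 291 to 477 in Sham. MI_stiff thus lay below MI_soft without overlap, and MI ran from within the MI_stiff range to above every MI_soft library. The summed TPM of the ligands Igf1 and Igf2 was 40.5 ± 12.6 in MI_stiff, 47.8 ± 7.09 in MI_soft, 61.9 ± 48.4 in MI and 10.3 ± 3.02 in Sham. As a share of the binding protein sum, the ligand sum was 3.40% ± 1.16 in MI_stiff, 2.30% ± 0.377 in MI_soft, 2.76% ± 1.33 in MI and 2.51% ± 0.484 in Sham, and these ranges overlapped. Igfbp7, which binds the ligands only weakly, made most of that sum (group means of 69.3% to 86.8%), and Igfbp3 is not in it. The share therefore mainly sets the ligands against Igfbp7 and does not measure binding capacity. No test was made on these sums.

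The makeup of the binding protein transcripts is given as shares. Igfbp6 made 16.7% ± 11.4 of the summed TPM in MI_stiff, 10.8% ± 1.26 in MI_soft, 17.9% ± 5.51 in MI and 3.58% ± 0.501 in Sham, and no ligated library (7.98% or more) came down to the Sham maximum of 4.18%. The share of Igfbp5 was 3.38% ± 1.25 in MI_stiff, 1.32% ± 0.606 in MI_soft, 2.02% ± 0.909 in MI and 5.62% ± 1.23 in Sham. Igfbp7 made 69.3% ± 11.9 in MI_stiff, 83.1% ± 1.66 in MI_soft, 74.2% ± 4.24 in MI and 86.8% ± 1.88 in Sham. The low mean of MI_stiff rests in part on MI_stiff 4, where Igfbp7 made 53.0% and Igfbp6 33.5%. The share of Igfbp4 was 10.5% ± 1.78 in MI_stiff, 4.70% ± 0.802 in MI_soft, 5.85% ± 4.41 in MI and 3.96% ± 0.554 in Sham, with every MI_stiff library (8.37% to 12.7%) above every MI_soft library (3.52% to 5.32%). A share also depends on the sum, which was 1203 TPM in MI_stiff and 2086 TPM in MI_soft. Igfbp4 itself averaged 256 CPM in MI_stiff and 234 CPM in MI_soft, with overlap (edgeR adjusted p = 0.899). The ratio of Igf1 to Igf2 transcripts by TPM was 2.74 ± 1.07 in MI_stiff, 5.93 ± 1.69 in MI_soft, 5.78 ± 2.38 in MI and 1.60 ± 0.392 in Sham.

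**Figure D3:**
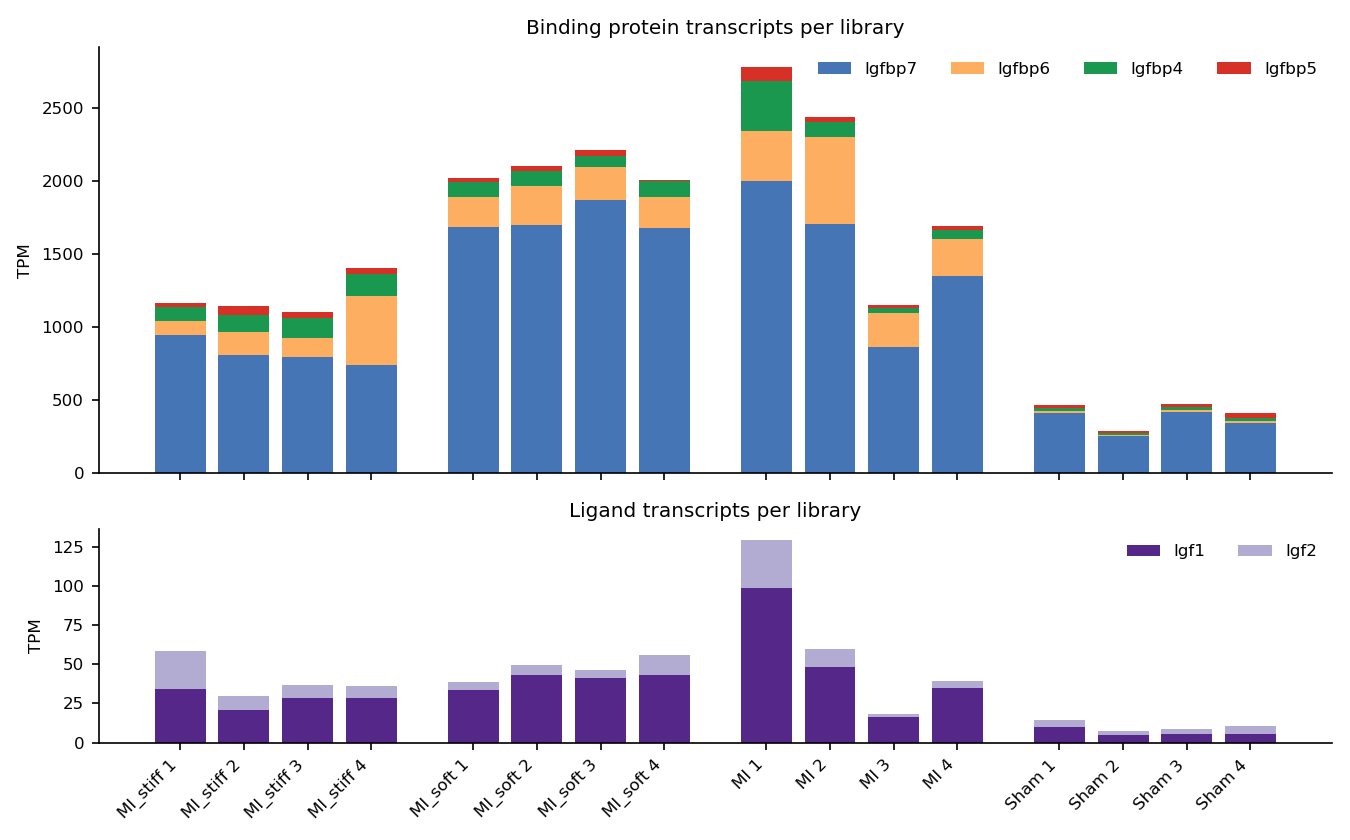
Stacked TPM of the binding protein genes (top) and of the ligand genes (bottom) in each of the 16 libraries, grouped as MI_stiff, MI_soft, MI and Sham, on linear axes that start at 0. The binding protein sum is 1103 to 1403 TPM in MI_stiff, 2007 to 2212 in MI_soft, 1153 to 2780 in MI and 291 to 477 in Sham, and Igfbp7 is the largest block in every library.

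The rest of the pathway was followed in 7 lists of 62 named genes, with 51 in the table and 46 tested. Most genes of these lists that passed the test against Sham were lower in the ligated groups, in contrast to the 4 called genes above. In MI_stiff, 3 rose and 6 fell of 46, in MI_soft 3 rose and 9 fell, and in MI 3 rose and 21 fell. The called genes were thus 9, 12 and 24 of 46, beside 21.2%, 26.1% and 36.6% of all tested genes in either direction. In both gel groups that is about the same share as among all tested genes. By direction, 12.7% of all tested genes rose and 8.44% fell in MI_stiff, 16.4% and 9.71% in MI_soft, and 20.2% and 16.4% in MI. The median log2 difference of the 46 genes was -0.16 in MI_stiff, -0.33 in MI_soft and -0.70 in MI. Without the libraries with few genes detected, the counts of 48 tested were 8 higher and 14 lower in MI_stiff and 7 higher and 15 lower in MI_soft. MI is not counted there because MI 1 is then its only library. Of all genes tested in that fit, 41.2% were called in MI_stiff (18.5% lower) and 36.8% in MI_soft (17% lower). On log2(TPM + 1) with limma-trend, 3 were higher and 1 (Ghr) lower in MI_stiff, and 3 higher and 4 lower in MI_soft. In MI, 17 of 46 were called in that fit, 14 of them lower. Of all genes tested in that fit, 20% were called in MI_stiff (3.75% lower), 20.7% in MI_soft (6.06% lower) and 30.2% in MI (13.7% lower). Beside these genes, markers of heart muscle cells also fell, as given below, and the part of that change in the lists was not tested. None of the 46 genes was called by edgeR between gel groups or between a gel group and MI. At an unadjusted p under 0.05 there were 5 in MI_stiff against MI_soft, 10 in MI_stiff against MI and 4 in MI_soft against MI, of which DESeq2 called 1, 2 and 0 and limma-voom none. Here too the share of all genes at the unadjusted cut was not computed. Without MI 1, 8 of 46 were called in MI_stiff and 6 of 46 in MI_soft, all higher than in MI, beside 10.9% and 13.1% of all 11528 genes tested in that fit.

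Growth hormone signalling, which drives Igf1 transcription in liver, had 5 tested genes, of which 3 fell in MI_stiff, 3 in MI_soft and 4 in MI. Of all tested genes, 8.44% fell in MI_stiff, 9.71% in MI_soft and 16.4% in MI. Ghr, the growth hormone receptor, averaged 52.6 CPM in MI_stiff, 41.9 in MI_soft, 41.3 in MI and 173 in Sham. Its log2 difference was -1.72 ± 0.30 in MI_stiff (adjusted p = 0.000548), -2.04 ± 0.30 in MI_soft (adjusted p = 0.000104) and -2.06 ± 0.30 in MI (adjusted p = 6.85e-05), and it was called in every alternative fit. Socs2, a growth hormone target that damps the pathway, fell by 1.72 in MI_stiff (adjusted p = 0.00826), by 1.25 in MI_soft (adjusted p = 0.0375) and by 2.04 in MI (adjusted p = 0.00157). Its MI_soft call was lost without MI_soft 2, 3 or 4 or without any 1 Sham library, and on log2(TPM + 1) neither gel group passed (adjusted p = 0.055 in MI_stiff and 0.0953 in MI_soft). Cish, a related feedback inhibitor, fell by 1.41 in MI_stiff (adjusted p = 0.0258) and by 1.56 in MI (adjusted p = 0.0096), and differed by -0.23 in MI_soft (adjusted p = 0.717). Without the libraries with few genes detected, the MI_soft difference of Cish was -0.78. The MI_stiff call of Cish was lost without MI_stiff 1, 3 or 4 or Sham 3 or 4, and on log2(TPM + 1) (adjusted p = 0.0893). Stat5b, the transcription factor that carries the hormone signal, fell by 1.07 in MI_soft (adjusted p = 0.0323) and by 1.34 in MI (adjusted p = 0.00734), and the MI_soft call was lost without MI_soft 2 or 4 or Sham 1, 3 or 4, and on log2(TPM + 1) (adjusted p = 0.147). In MI, Cish and Stat5b were not called when MI 1 stood alone for the group (adjusted p = 0.248 and 0.282).

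Among proteases and their inhibitors, Htra1, a secreted protease known from human cells to cut Igfbp5, rose in all ligated groups. It averaged 286 CPM in MI_stiff, 359 in MI_soft, 288 in MI and 108 in Sham, with log2 differences of 1.40 ± 0.22 (adjusted p = 0.000222), 1.73 ± 0.22 (adjusted p = 2.57e-05) and 1.41 ± 0.22 (adjusted p = 0.00011). Htra1 was called in every alternative fit. Its relative Htra3 rose by 0.76 ± 0.24 in MI_soft (adjusted p = 0.0233), a call lost without MI_soft 4 or Sham 1, 3 or 4. Stc2, an inhibitor of the Pappa proteases, averaged 1.06 CPM in MI and 7.07 CPM in Sham, and fell by 2.71 ± 0.66 in MI (adjusted p = 0.00425). The gel groups were lower than Sham too but did not pass. Stc2 averaged 3.78 CPM in MI_stiff (-0.90 ± 0.61, adjusted p = 0.327) and 2.13 CPM in MI_soft (-1.73 ± 0.63, adjusted p = 0.0516). Its MI_soft difference passed in 10 of 25 alternative fits and its MI_stiff difference in 2. Of the 8 genes of this list, 5 were tested, and Pappa was not among the tested genes.

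Receptors and adaptors moved in both directions. Of 8 tested genes, 1 rose and none fell in MI_stiff, none rose and 1 fell in MI_soft, and 1 rose and 4 fell in MI. Of all tested genes, 12.7% rose and 8.44% fell in MI_stiff, 16.4% and 9.71% in MI_soft, and 20.2% and 16.4% in MI. Grb10, an adaptor that inhibits insulin and Igf1 receptors, rose by 0.77 ± 0.25 in MI_stiff (adjusted p = 0.0334) and by 1.03 ± 0.25 in MI (adjusted p = 0.00401). The MI_stiff call of Grb10 was lost without MI_stiff 1, 2 or 4 or without any 1 Sham library. Sos1, which activates Ras downstream of receptors, fell by 0.85 ± 0.21 in MI_soft (adjusted p = 0.00685) and by 0.74 ± 0.21 in MI (adjusted p = 0.0113), and both calls were lost on log2(TPM + 1) (adjusted p = 0.134 in MI_soft and 0.128 in MI). The insulin receptor Insr fell by 2.35 ± 0.77 in MI (adjusted p = 0.0233), with 4.71 CPM in MI and 24.2 CPM in Sham. That call was lost in 3 of 25 alternative fits, among them those without MI 4 or Sham 4. With MI 1 as the only MI library the Insr difference was -1.54. In the gel groups Insr was lower than Sham but not called. It averaged 9.69 CPM in MI_stiff (-1.32 ± 0.74, adjusted p = 0.222) and 7.2 CPM in MI_soft (-1.74 ± 0.75, adjusted p = 0.0931). The substrate Irs1 fell by 1.36 ± 0.49 in MI (adjusted p = 0.0377), a call lost in 11 of 25 alternative fits, among them those without MI 2, 3 or 4 or Sham 1, 2 or 4, limma-voom (adjusted p = 0.0621), log2(TPM + 1) (0.115) and the fit with MI 1 as the only MI library (0.441). Igf2r, which clears Igf2 from the cell surface and was picked out here after its values were seen, averaged 185 CPM in MI_stiff, 154 in MI_soft, 132 in MI and 191 in Sham. It fell by 0.53 ± 0.20 in MI (adjusted p = 0.0436), and this call held in 9 of 25 alternative fits.

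Downstream, Akt2, a kinase of insulin and Igf signalling, fell in all ligated groups, by 1.01 ± 0.27 in MI_stiff (adjusted p = 0.0125), by 1.08 ± 0.27 in MI_soft (adjusted p = 0.00694) and by 1.29 ± 0.27 in MI (adjusted p = 0.00147). Akt1 fell by 1.16 ± 0.30 in MI_stiff (adjusted p = 0.00982) and by 1.17 ± 0.30 in MI (adjusted p = 0.0055). In MI_soft Akt1 differed by -0.63 ± 0.29 (adjusted p = 0.125), and by -0.87 without MI_soft 4 (adjusted p = 0.0346). Without the libraries with few genes detected that MI_soft difference was also -0.87. With MI 1 as the only MI library neither was called in MI (adjusted p = 0.146 for Akt2 and 0.346 for Akt1), and with log2(TPM + 1) neither was called in MI_stiff (adjusted p = 0.175 for Akt2 and 0.119 for Akt1), nor was Akt2 in MI_soft (adjusted p = 0.0699). In this list of PI3 kinase, AKT and mTOR genes, none rose and 2 fell of 15 tested in MI_stiff, 1 rose and 4 fell in MI_soft, and 1 rose and 7 fell in MI. The shares of all tested genes that rose and fell were 12.7% and 8.44% in MI_stiff, 16.4% and 9.71% in MI_soft, and 20.2% and 16.4% in MI. Gsk3b fell by 1.89 ± 0.42 in MI (adjusted p = 0.00244, called in 25 of 25 alternative fits). Rptor fell by 0.65 ± 0.16 in MI (adjusted p = 0.00542, 22 of 25) and by 0.54 ± 0.16 in MI_soft (adjusted p = 0.0214, 19 of 25). In MI_soft Mtor fell by 0.59 ± 0.17 (adjusted p = 0.0183, 22 of 25) and Eif4ebp1 rose by 1.12 ± 0.34 (adjusted p = 0.0227, 21 of 25). The muscle ubiquitin ligase Trim63, a target of FOXO factors, was the gene of the FOXO list called in every ligated group, and fell by 0.73 ± 0.25 in MI_stiff (adjusted p = 0.0438), by 1.03 ± 0.25 in MI_soft (adjusted p = 0.00575) and by 0.81 ± 0.25 in MI (adjusted p = 0.0163). The MI_stiff call of Trim63 was lost without any 1 library of MI_stiff or Sham, and without MI 4 or MI_soft 1. On log2(TPM + 1) Trim63 was called in none of the 3 groups (adjusted p = 0.381 in MI_stiff, 0.0534 in MI_soft and 0.0583 in MI). Of the 10 tested genes of that list, 1 fell in MI_stiff, 1 in MI_soft and 4 in MI, and none rose, beside the same shares of all tested genes. Sesn1 was among those that fell in MI (-0.66 ± 0.24, adjusted p = 0.0368), a call kept in 15 of 25 alternative fits. Foxo4 fell by 0.87 ± 0.24 in MI (adjusted p = 0.00903) and Foxo1, a transcription factor that AKT keeps out of the nucleus, by 3.13 ± 0.91 (adjusted p = 0.0126). Neither was called in a gel group. Foxo4 differed by -0.50 ± 0.24 in MI_stiff (adjusted p = 0.149) and by -0.57 ± 0.24 in MI_soft (adjusted p = 0.0814). Foxo1 differed by -0.98 ± 0.83 in MI_stiff (adjusted p = 0.44) and by -1.66 ± 0.85 in MI_soft (adjusted p = 0.158). Both MI calls were lost when MI 1 stood alone for the group (adjusted p = 0.228 and 0.0791).

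Igfbp2 and Igf2bp3 were near zero in a group. Igfbp2, another high-affinity binding protein and the neighbour of Igfbp5 on the chromosome, had 4, 40, 69 and 31 counts in MI_stiff libraries 1 to 4, and 2, 0, 4 and 0 counts in Sham. MI_stiff 1 was within the Sham range and the other 3 MI_stiff libraries were above it. Igfbp2 was called higher in MI_stiff than in Sham (log2 difference 4.34 ± 1.23, adjusted p = 0.0179), and the call was lost without MI_stiff 3, Sham 2 or Sham 4. Its level of 2.61 ± 1.91 CPM in MI_stiff did not pass against 0.315 CPM in MI_soft (adjusted p = 0.238) or 0.227 CPM in MI (adjusted p = 0.144). On log2(TPM + 1) the difference from MI was called, at 1.35 (adjusted p = 0.0329). Igf2bp3, which binds Igf2 messenger RNA, had 1, 0, 0 and 0 counts in MI and 33, 15, 14 and 17 counts in Sham (adjusted p = 0.00381). It was not called when MI 1 stood alone for the group, where the log2 difference was -4.50. Its means of 0.425 CPM in MI_stiff and 0.235 CPM in MI_soft did not pass against 1.6 CPM in Sham (adjusted p = 0.208 and 0.0699).

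**Figure D4:**
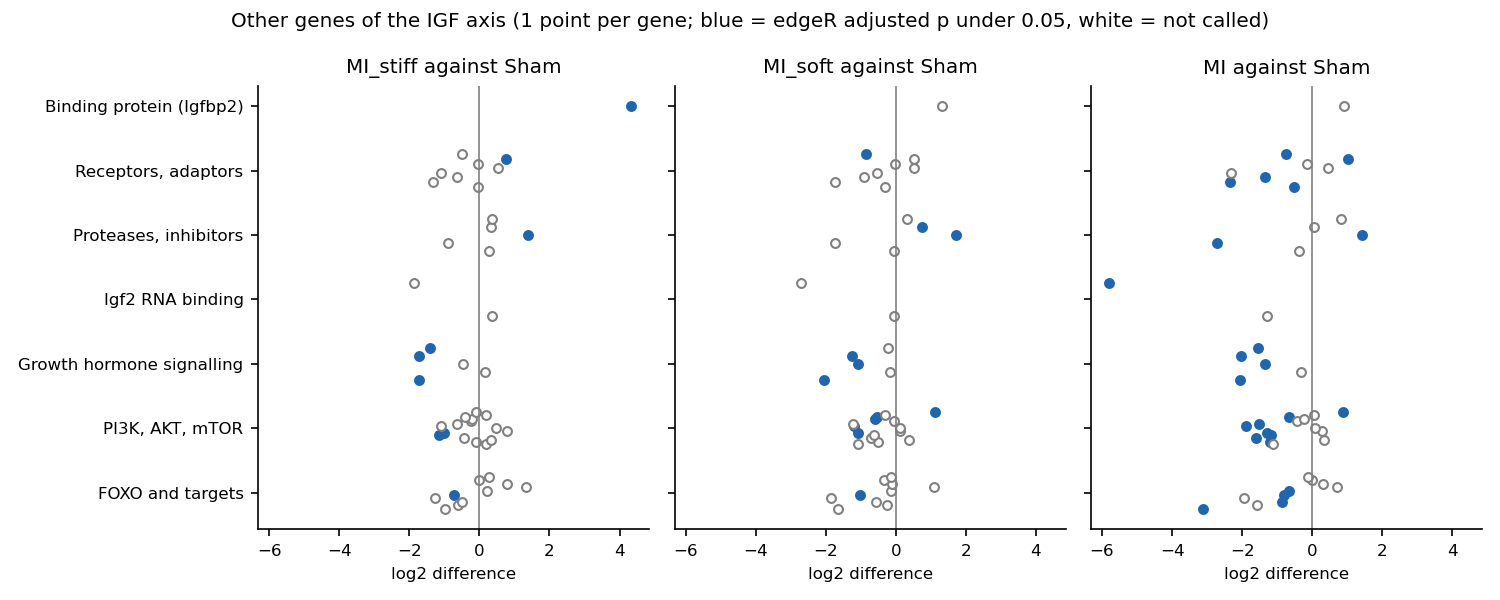
Log2 differences (horizontal axes, the same scale in each panel) of the 46 tested genes of the 7 pathway lists, for MI_stiff, MI_soft and MI against Sham, with 1 point per gene; blue points passed the edgeR test at an adjusted p under 0.05. Most blue points lie left of 0, and the growth hormone signalling list holds 3, 3 and 4 of them.

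Cell type markers moved with these results, and their part in them was not tested. Relative to Sham, 12.7% of all tested genes rose and 8.44% fell in MI_stiff, 16.4% and 9.71% in MI_soft, and 20.2% and 16.4% in MI. Of 10 fibroblast markers, 9 rose in MI_stiff, 9 in MI_soft and 10 in MI relative to Sham, with summed levels of 12256 to 18788 CPM in MI_stiff, 14907 to 20282 in MI_soft, 14808 to 23794 in MI and 2883 to 3674 in Sham. Of 9 tested macrophage markers, 9 rose in MI_stiff, 9 in MI_soft and 7 in MI, with sums of 594 to 2498 CPM in MI_stiff, 1605 to 5083 in MI_soft, 469 to 1391 in MI and 144 to 179 in Sham. Of 10 markers of heart muscle cells, 8 fell in MI_stiff, 6 in MI_soft and 7 in MI, and 1 rose in each of MI_soft and MI, with sums of 26866 to 33476 CPM in MI_stiff, 32629 to 47597 in MI_soft, 22462 to 35334 in MI and 68926 to 82318 in Sham. No marker of these 3 lists was at 0 in a whole group. In other lists, 2 of 5 smooth muscle markers rose and 1 fell in MI_stiff, and 3 rose and 2 fell in MI_soft and in MI. Lymphocyte markers were called only in MI_soft, where 5 of 8 rose. Among 4 skeletal muscle markers, 1 rose and 1 fell in MI_stiff, 3 rose in MI_soft, and 2 rose and 1 fell in MI. Among 5 endothelial markers, 1 fell in MI_soft, and 1 rose and 1 fell in MI. Between MI_stiff and MI_soft, edgeR and limma-voom called no marker of any list. At an unadjusted p under 0.05 there were 3 of 10 fibroblast, 2 of 5 endothelial, 2 of 5 smooth muscle, 6 of 8 lymphocyte, 3 of 4 skeletal muscle, 4 of 10 heart muscle and 1 of 9 macrophage markers. DESeq2 called 1 fibroblast, 2 smooth muscle, 1 lymphocyte and 2 heart muscle markers, where it called 278 genes in all. The share of all genes at the unadjusted cut was not computed, so the marker counts at that cut have no background. The endothelial sum was 594 to 822 CPM in MI_stiff and 463 to 729 CPM in MI_soft. The smooth muscle sum was 377 to 452 CPM in MI_stiff and 458 to 577 CPM in MI_soft, without overlap. The median log2 difference of the 5 smooth muscle markers was 0.24, so the lower sum does not hold for each marker. The lymphocyte sum was 19.7 to 50.5 CPM in MI_stiff and 92.9 to 351 CPM in MI_soft, without overlap, and so was the skeletal muscle sum, with 2974 to 3946 CPM in MI_stiff and 4200 to 7076 CPM in MI_soft. Between MI_stiff and MI, 1 of 10 fibroblast, 2 of 5 smooth muscle and 1 of 4 skeletal muscle markers fell and 1 of 10 markers of heart muscle cells rose. Beside them, 1.19% of all tested genes were called in that comparison.

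Across all 16 libraries and all tested genes, those whose log2 CPM ran most alike to each member were listed. Pearson's r with Igf1 was 0.971 for Srpx2 and 0.966 for Efemp2, which encode extracellular proteins. For Igfbp4 it was 0.976 for Vat1 and 0.967 for Col1a1, a chain of type I collagen, and for Igfbp6 0.978 for both Clec3b and Anxa7. Igfbp7 ran with Mgp and Prelp, which encode matrix proteins, at 0.964 each. Within the 12 ligated libraries, where the step from Sham plays no part, these values were 0.868 and 0.852 for Igf1, 0.888 and 0.845 for Igfbp4, 0.838 and 0.878 for Igfbp6, and 0.932 and 0.908 for Igfbp7. The closest genes were Ralb (0.883) and Creb3l1 (0.832) for Igf2, Dact1 (0.891) and Smoc2 (0.869) for Igfbp5, and Nras (0.938) and Ccdc142 (0.932) for the scarce Igf1r. Among the members themselves, Igf1 and Igfbp6 had r = 0.91 over 16 libraries and 0.43 over the 12 ligated ones, and Igfbp4 and Igfbp6 had 0.84 and 0.07. Igf2 and Igfbp4 kept 0.71 and 0.81. These values describe the libraries, which share tissue makeup and depth, and no p-value is attached to them.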

How the data were processed

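RNA from the infarct zone of 16 rat heart samples, 4 per group, was sequenced after mRNA purification, per the labels' protocols. The authors deposited expected counts per gene, estimates of reads that need not be whole, and TPM for the same genes. STAR 2.7.3a and RSEM 1.3.1 with build rn7 were used, per the submitters' processing notes; the sources used here give neither annotation nor strand setting, so reads of antisense or overlapping genes cannot be separated. Values were rounded to whole numbers; 0.785% had a fractional part. None of the 7 measured genes had counts identical to another gene.

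The default edgeR filter left 11376 genes. TMM scaling, robust quasi-likelihood fits (edgeR 4.0.16, R 4.3.3) with 1 coefficient per group over all 16 libraries, and Benjamini-Hochberg adjustment over all tested genes followed, with a threshold of 0.05. The common biological coefficient of variation was 0.403. Errors of differences are SE on the log2 scale; levels are mean ± SD. The script was tested on simulated data. Alternatives were DESeq2 1.42.0, limma-voom (limma 3.58.1), other scaling, no filter, a replicate block, the 4 libraries with few genes detected left out, 2 groups alone, limma-trend on log2(TPM + 1) and log2(TPM + 0.1), and each library left out. The labels give no pairing by replicate number. Libraries with the same number were not more alike than others (median r of -0.027 and 0.02055), which cannot exclude a pairing. All members are described; in each pathway list at most 4 called genes per comparison, those with the smallest adjusted p, are named, with exceptions stated. The genes and lists were chosen with earlier results of these data known. Promoter sequences are from RefSeq, build GRCr8; 8 of 8 genes matched by symbol.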

Additional observations from a re-analysis of the deposited data

Results flagged for a closer look

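In a screen of 32 groups (8 genes in 4 groups of 4 libraries), 4 held a library that stood apart from the other 3 of its group by more than Dixon's limit, a limit that chance passes in about 1 of 20 groups. Igf1 was 53.2 CPM in MI_stiff 1, while the other MI_stiff libraries had 29.1 to 32.9 CPM. Igf2 was 91.3 CPM in MI_soft 4, while the other MI_soft libraries had 24.2 to 34.5 CPM. Igfbp5 was 398 CPM in MI_stiff 2, while the other MI_stiff libraries had 182 to 215 CPM. Igfbp6 was 540 CPM in MI 2, while the other MI libraries had 189 to 246 CPM. The 4 flags fell on 4 different libraries. MI_soft 4 and MI 2 are among the libraries with few genes detected, and MI_stiff 1 and MI_stiff 2 are not.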

How the results depend on the processing

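Each result was recomputed in 25 alternative fits. Igf1, Igfbp4, Igfbp6 and Igfbp7 were called higher than Sham in every fit of the 3 comparisons. Over the fits that leave out 1 library, the number of the 7 genes called was 4 in MI_stiff against Sham, 4 in MI_soft against Sham, 4 to 6 in MI against Sham, 0 to 1 in MI_stiff against MI_soft, 0 to 2 in MI_stiff against MI and 0 in MI_soft against MI. Between ligated groups, 1 gene was called in place of 0 with DESeq2 in MI_stiff against MI_soft and in MI_stiff against MI, with limma-voom in MI_stiff against MI_soft, and without the libraries with few genes detected in all 3, where MI 1 is the only MI library and is assumed to vary like the other groups. Differences that changed sign all missed the threshold: Igf1r in MI against Sham (0.23 without the libraries with few genes detected, -0.71 to 0.02 leaving out 1 library), Igfbp5 in MI_soft against Sham (-0.01 with limma-voom, -0.06 to 0.34 leaving out 1 library), and, leaving out 1 library, Igf2 in MI_stiff against MI_soft (-0.24 to 1.16) and in MI_soft against MI (-1.07 to 0.21) and Igfbp4 in MI_stiff against MI_soft (-0.03 to 0.37). For MI_soft against MI, Igfbp4 was 0.04 with either TPM scale (-0.61 to 0.30 leaving out 1 library). For MI_stiff against MI, Igf2 was -0.95 without the libraries with few genes detected (-0.65 to 0.71), Igfbp4 was 0.17 with limma-voom, 0.40 with log2(TPM + 1) and 0.41 with log2(TPM + 0.1) (-0.45 to 0.45), and Igfbp5 was 0.09 with either TPM scale (-0.50 to 0.18). The cause was not tested. Counts over all genes moved most between ligated groups: MI_stiff against MI_soft had 11 called genes, 278 with DESeq2 and 243 without the libraries with few genes detected, and 4 to 57 leaving out 1 library; MI_stiff against MI had 135, 583 with DESeq2, and 11 (without MI 4) to 1253 (without MI 1); MI_soft against MI had 3, 293 with DESeq2, and 0 to 1508 (without MI 1). Against Sham, MI_stiff had 2410 genes, 4986 without the libraries with few genes detected and 4523 in a fit of the 2 groups alone, and MI_soft had 2965 and 4455. The pathway lists had 4 called genes in MI_stiff and 7 in MI_soft against Sham with log2(TPM + 1), in place of 9 and 12, and 20 in MI_stiff in a fit of the 2 groups alone. The labels give no pairing by replicate number. Of 24 pairs of libraries with the same number, 5 correlated above 0.1 (range -0.285 to 0.176), which shows no sign of a pairing but cannot exclude it. With the replicate number as a block, 4, 4 and 4 of the 7 genes were called in MI_stiff, MI_soft and MI against Sham and 0 in the other 3 comparisons, and over all genes the counts between ligated groups were 3, 34 and 0. Among pathway genes called without the block, the block took away the call of Grb10 in MI_stiff (0.76, adjusted p = 0.059), Irs1 (-1.40, 0.0542), Igf2r (-0.54, 0.0631) and Eif4ebp1 (0.96, 0.0542) in MI and Gsk3b in MI_soft (-1.21, 0.0567), all against Sham. Igf1r had 0 to 142 counts per library.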
